A study of Rattus norvegicus with 7 samples.

Results

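Cell cycle, replication and mitosis genes were examined in NR8383 cells, a rat alveolar macrophage line established from lung lavage, after a short exposure to zinc oxide nanoparticles (ZnO NPs, NM110). The genes were taken by their array names: the Mcm, Orc, Gins, Cdk, A, B, D and E cyclin, Cenp, Kif, Aurk, Plk, Bub and Cdc25 families together with Mki67, Top2a, Pcna, Birc5, Cdc20, Cdc6 and Cdc45. This gave 117 gene names of the 27103 on the array, measured by 172 of 45598 probes and 269 of 58717 spots. The rule reads names alone and no measured value. Control cells received no particles (0 µg/mL) and exposed cells received 2 µg/mL of ZnO NPs, both for 4 h in medium without serum, and both groups were the same cell line with no genetic change named in the labels. There were 4 control arrays and 3 ZnO arrays, each hybridised with Cy3-labelled RNA from 1 biological replicate. The labels do not say whether replicates came from separate passages, so the p-values measure the spread between these arrays.

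A dividing cell loads the MCM helicase onto replication origins marked by the origin recognition complex, fires those origins in S phase, and then builds a spindle that pulls the chromosomes apart by their centromeres. Cyclins and their kinases order these steps, and many of the genes are transcribed only at the stage in which they act, through E2F factors at the entry into S phase and through NF-Y and the MuvB complex, which binds the CHR element, before mitosis. Most alveolar macrophages in the lung divide rarely, whereas NR8383 is grown as a proliferating line.

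Intensities were compared after division by the 75th percentile of each array, which ranged from 958 to 1489 in the control group and from 980 to 1603 in the ZnO group, and no probe spot of any array was saturated. All 7 arrays lay on 1 slide and were scanned together. Controls occupied one column of the slide and ZnO arrays the other, so an effect of the column cannot be told apart from that of ZnO. The scanner's quality report marked 2 control arrays (replicates 3 and 4) and 2 ZnO arrays (replicates 2 and 3) for evaluation, and results without them are given with the processing alternatives. Of 15 macrophage markers on the array, 14 were above background on every array, and Marco was above background on none. The log2 of the summed levels of the 15 markers was 7.66 to 7.72 in controls and 7.63 to 7.81 after ZnO. Lyz2, the brightest, contributed most to that sum. None of 7 lymphocyte markers was above background on any array, and none of 8 epithelial markers was on all arrays, while 2 of 7 fibroblast, 3 of 6 endothelial and 2 of 7 neutrophil markers were. The array measures RNA per unit of total RNA, so fewer cells in a phase and less of a transcript per cell cannot be told apart.

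The upstream sequences of 5 genes show the elements through which these families are usually controlled. They were chosen because Mcm5 and Mcm6 are licensing genes with an E2F word, Cdk1 holds E2F, CHR and NF-Y words together, Mki67 is the usual proliferation marker and Birc5 had the largest positive difference among the genes tested. Each line gives the 150 bases before the annotated transcription start (RefSeq, GRCr8), read 5′ to 3′ on the gene's strand. Capitals mark words found by a search of both strands for E2F (TTTCCCGC, TTTGGCGC, TTTCGCGC or TTTGCCGC), for CHR (the word TTTGAA), for NF-Y (the word CCAAT) and for the metal response element core bound by MTF1 (either TGCACNC or else TGCGCNC). Some words overlap, as a CHR and an NF-Y word do in Mki67 and E2F words of both strands do in Mcm6.
Mcm5 chr19:13488663-13488812, plus strand: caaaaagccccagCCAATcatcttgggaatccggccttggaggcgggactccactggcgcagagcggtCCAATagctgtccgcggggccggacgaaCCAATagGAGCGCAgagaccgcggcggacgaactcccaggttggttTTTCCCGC
Mcm6 chr13:42404353-42404502, minus strand: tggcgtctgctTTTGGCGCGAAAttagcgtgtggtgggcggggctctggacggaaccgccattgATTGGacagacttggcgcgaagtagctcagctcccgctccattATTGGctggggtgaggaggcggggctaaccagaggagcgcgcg
Cdk1 chr20:19265143-19265292, plus strand: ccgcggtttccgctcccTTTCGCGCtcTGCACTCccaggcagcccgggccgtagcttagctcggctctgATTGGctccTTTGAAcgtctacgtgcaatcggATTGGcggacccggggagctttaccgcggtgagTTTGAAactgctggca
Mki67 chr1:199952594-199952743, minus strand: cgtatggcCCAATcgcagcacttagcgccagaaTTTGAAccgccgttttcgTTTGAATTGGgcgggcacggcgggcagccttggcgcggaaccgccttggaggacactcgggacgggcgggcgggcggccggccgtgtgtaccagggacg
Birc5 chr10:103571996-103572145, plus strand: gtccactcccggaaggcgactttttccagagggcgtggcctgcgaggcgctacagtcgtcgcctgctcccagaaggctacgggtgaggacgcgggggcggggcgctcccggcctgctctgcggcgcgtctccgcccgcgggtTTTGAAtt

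The table of promoters (250 bases before to 50 after the start) held an entry for 93 of the 117 genes. The entries not found by symbol were Aurkb, Ccna2, Ccnd1, Ccnd2, Ccne2, Cdc6, Cdk13, Cdk17, Cdk6, Cdk9, Cenpt, Gins4, Kif13b, Kif14, Kif19, Kif21b, Kif26a, Kif2b, Kif4b, Kif5a, Kif7, Mcm4, Orc1 and Orc4. An E2F word stood in 13 of the 93 promoters (14.0%), against 2.25% of all 27457 promoters in the table, and 10 of those 13 belonged to the 17 replication genes with an entry. A CHR word stood in 28 (30.1%, against 18.1% of all), among them both proliferation markers, 7 of 14 centromere genes and 5 of 10 mitotic kinesins. An NF-Y word stood in 52 (55.9%, against 37.7%). The metal response element core, a short word that is common by its length, stood in 37 (39.8%, against 25.0%). These are matches of letters, not mapped binding sites.

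Of the 117 genes, 100 had a probe that cleared background on every array of either group and were tested, each through its brightest such probe; 132 of their 133 tested probes were above background on all 7 arrays. Of 22 replication genes 21 were measurable, as were 8 of 10 cyclins, 3 of 4 cell cycle CDKs, 6 of 7 mitotic kinases, 11 of 12 mitotic kinesins and 14 of 25 other kinesins, and every proliferation marker, CDC25, spindle checkpoint, centromere and other CDK gene. The 17 genes without a measurable probe were Ccna1, Ccnb3, Cdk6, Mcm9, Plk2 and 12 kinesins (Kif12, Kif19, Kif21a, Kif21b, Kif26b, Kif27, Kif28p, Kif2b, Kif4b, Kif5a, Kif5c and Kif6). Of these, 12 had no probe above background on any array. Ccna1 encodes the germline A-type cyclin, Kif5a and Kif5c are neuronal transport motors, and Cdk6 is the partner of D-type cyclins besides Cdk4. For 38 genes the probe was brighter than the 75th percentile of every array, Mki67, Cdk1, Plk1, Pcna, Mcm2 and Kif20a among them.

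No cell cycle gene passed the test between ZnO and control arrays. At a Benjamini-Hochberg adjusted p under 0.05 over all 20050 probes tested with limma, 0 of 100 genes were called, and across the whole array 10 of 16167 gene names were called (0.0619%), all higher after ZnO and by up to 5.83 on the log2 scale. Before adjustment, 1 gene had p under 0.05 and a higher mean after ZnO (1% of 100, against 3.21% of all gene names) and 3 had a lower one (3%, against 2.67%). All 3 ZnO arrays lay above all 4 control arrays for 6 genes (4.00% of all gene names did so) and below them for 4 (3.46%). These shares were near those over the whole array. The split of 6 above and 4 below moved with the scaling: it was 2 and 5 after quantile normalization (3.56% and 3.82% of all gene names) and 1 and 4 after centring on the median (1.55% and 4.69%). It was 0 and 6 when the 75th percentile was taken over probes above background on all arrays (2.65% and 5.46%). Without ZnO replicate 1 it was 15 and 12, against 9.83% and 12.2% of all gene names.

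The differences were small in both directions. The log2 fold change (ZnO minus control) of the 100 genes had a median of -0.0090, against -0.0046 over all gene names, and ran from -0.41 for Kif3c to 0.26 for Birc5; 44 genes were above 0. None differed by over 1.5-fold, as 184 of all 16167 gene names did. The 95% interval lay wholly within a 1.5-fold change for 98 of 100 genes, against 82.8% of all gene names. The exceptions were Kif3c, whose interval reached 0.549 of the control level, and Cdk18, with an interval from 0.590 to 1.64 of it. The median standard error was 0.085, and the interval of a typical gene extended 0.20 to either side on the log2 scale.

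**Figure D1:**
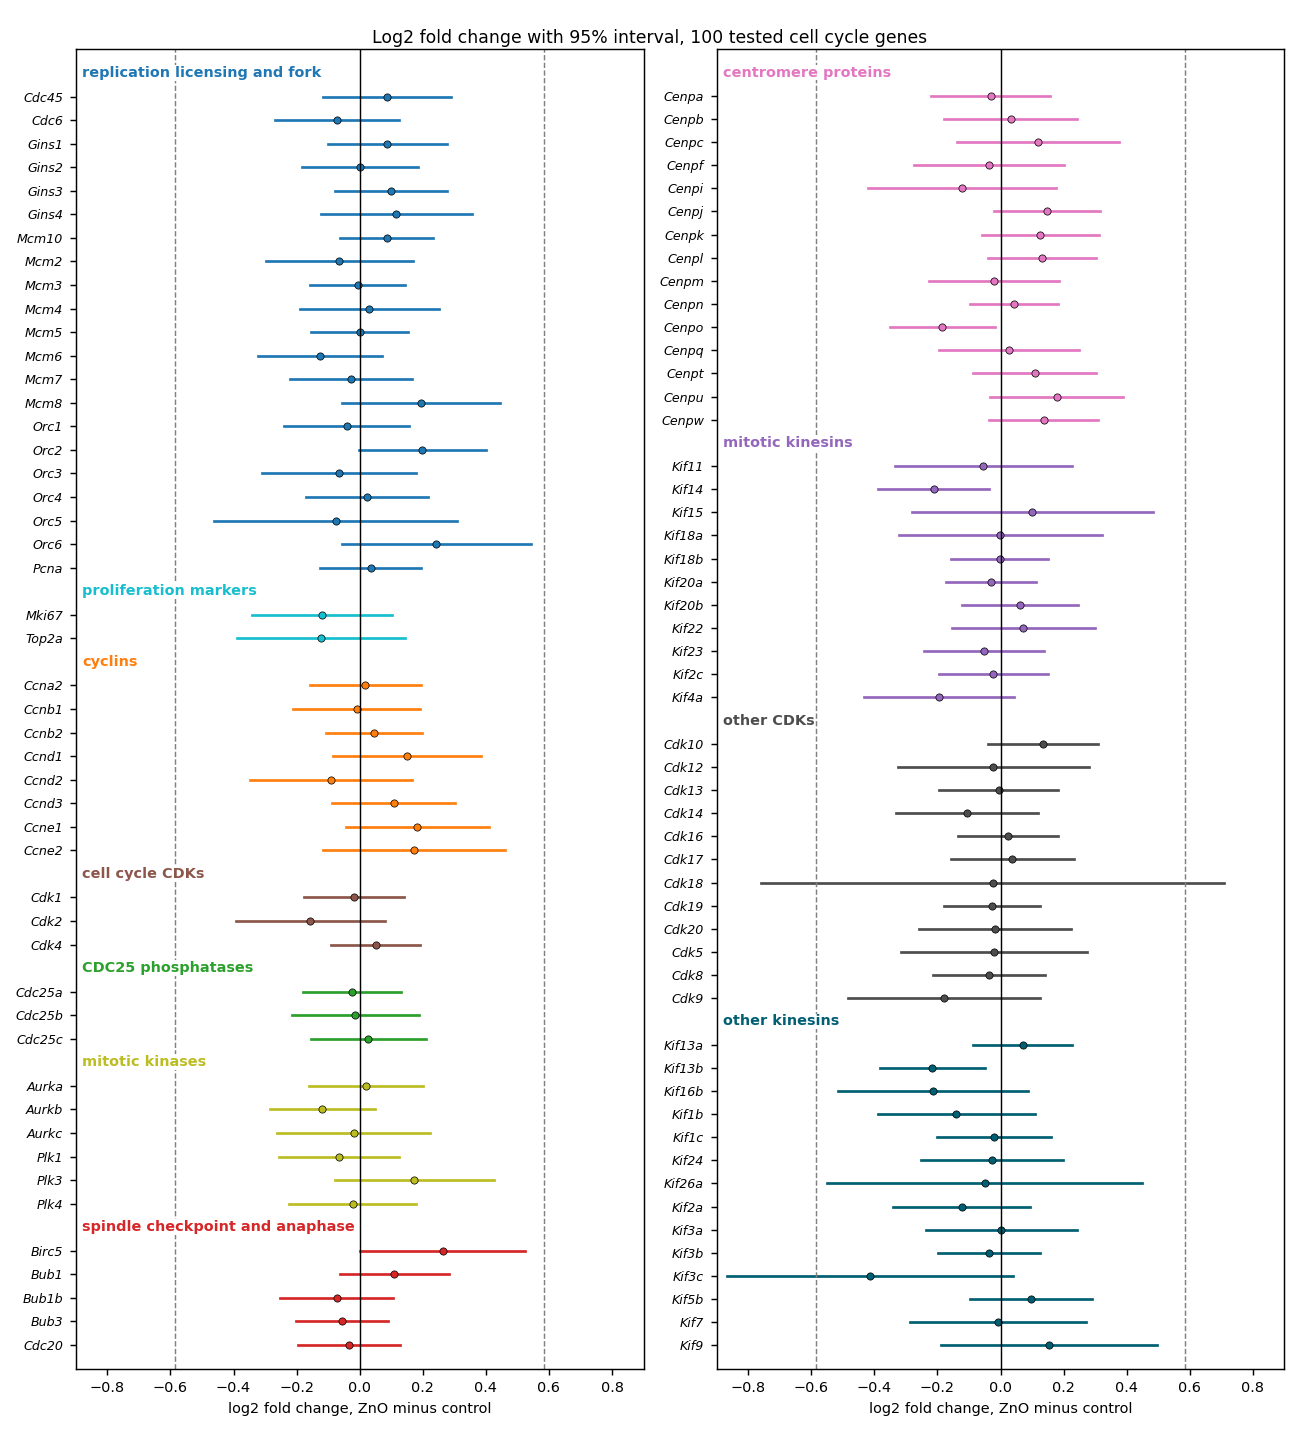
Log2 fold change (ZnO minus control, horizontal axis) of the brightest tested probe of each of 100 cell cycle genes, with its 95% interval from limma as a line, grouped by role; dashed lines stand at a 1.5-fold change either way. Only the intervals of Kif3c and Cdk18 cross a dashed line.

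**Figure D2:**
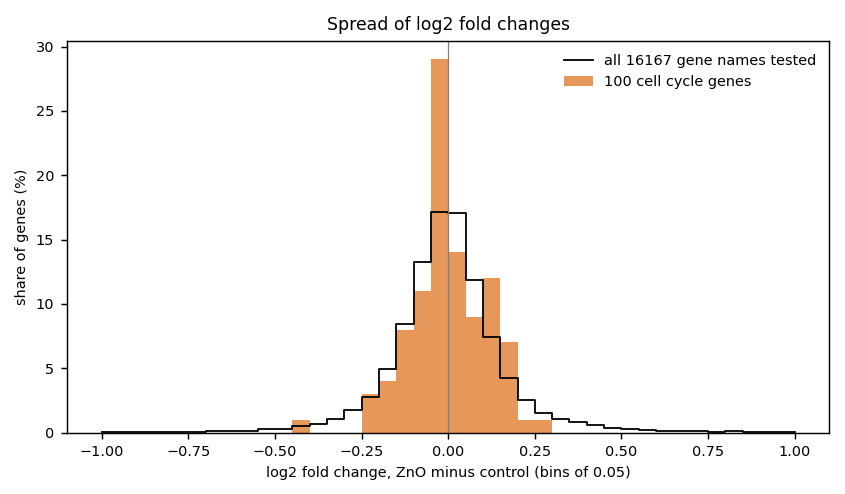
Share of genes (%, vertical axis) in bins of 0.05 of log2 fold change (horizontal axis), for the 100 cell cycle genes (bars) and all 16167 gene names tested (line; values beyond -1 and 1 are not drawn). Both peak at 0: 63% of the cell cycle genes lie within 0.1 of it, and 59.3% of all gene names.

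Proliferation markers were bright and varied between arrays of both groups. Mki67, which encodes the Ki-67 antigen of cycling cells, read 3.12, 3.18, 2.96 and 3.29 on the control arrays and 2.92, 3.05 and 3.09 on the ZnO arrays (log2 of the signal over the 75th percentile, as all levels here). The groups overlapped, with a log2 fold change of -0.12 ± 0.096 (SE) and an adjusted p of 0.952. Its 4 tested probes all gave a value below 0, from -0.14 to -0.0043. Top2a, the topoisomerase that untangles replicated DNA, read 1.44, 1.46, 1.14 and 1.26 in controls and 1.02, 1.35 and 1.24 after ZnO, again overlapping, with a log2 fold change of -0.12 ± 0.115. The brightest Mki67 probe lies at chr1:195310145-195310204 on the minus strand in rn4, the build of the array's annotation, and that of Cdk1 at chr20:20043755-20043814 on the plus strand; the exon or UTR each lies in was not determined here.

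Replication genes (21 tested) had a median log2 fold change of 0.023, with 12 above 0, and none had groups that did not overlap. The MCM2-7 helicase subunits stayed within a narrow band. Mcm5 read 3.29, 3.25, 3.16 and 3.18 in controls and 3.23, 3.22 and 3.22 after ZnO, which placed all ZnO arrays inside the control range (log2 fold change -0.00054 ± 0.066). Mcm2 read 4.01, 3.85, 3.94 and 3.83 in controls and 4.05, 3.77 and 3.71 after ZnO, so its ZnO arrays held both the highest and the lowest value (-0.064 ± 0.10). Mcm7 gave -0.027 ± 0.083 and Mcm6 -0.13 ± 0.084. Pcna, the clamp that holds the polymerase on DNA, read 2.44, 2.37, 2.37 and 2.42 in controls and 2.34, 2.48 and 2.49 after ZnO (0.035 ± 0.069). The loading factor Cdc6 gave -0.072 and the helicase partner Cdc45 gave 0.087.

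The lowest p among the replication genes was that of Orc2, a subunit of the origin recognition complex. It read -2.79, -2.85, -2.64 and -2.83 in controls and -2.70, -2.47 and -2.56 after ZnO, with a log2 fold change of 0.20 ± 0.087 (adjusted p 0.847). Replicates 2 and 3 of ZnO were above every control and replicate 1 lay among them, and a second, dimmer Orc2 probe gave -0.048. Orc6 gave the largest difference of the group, 0.24 ± 0.129 (adjusted p 0.893), from control arrays at -4.13, -4.26, -4.33 and -4.66 and ZnO arrays at -4.08, -4.21 and -4.02. Of the 10 replication genes with an E2F word in the promoter entry the median was -0.017, and of the 7 without, of which 6 were tested, it was 0.086.

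Cyclins (8 tested) had a median of 0.077, with 6 above 0, and their groups overlapped in every case. The E-type cyclins, which drive entry into S phase with Cdk2, had means above those of the controls: Ccne1 read 0.86, 0.93, 0.83 and 0.62 in controls and 1.11, 0.99 and 0.88 after ZnO (0.18 ± 0.097, adjusted p 0.893). Ccne2 gave 0.17 ± 0.123, with control replicate 1 at -0.94 above all ZnO arrays. Ccnd1, a D-type cyclin of early G1, gave 0.15 ± 0.101 by its brightest probe and 0.031 by another, and Ccnd3 gave 0.11 ± 0.084. The D-type cyclin Ccnd2 went the other way, at -0.092 ± 0.110. By their brightest probes the mitotic cyclins were nearer 0, with Ccna2 at 0.017, Ccnb1 at -0.010 and Ccnb2 at 0.046. A dimmer Ccna2 probe gave -0.16 ± 0.089.

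Among the cell cycle CDKs, Cdk1, the kinase of mitotic entry, read 3.56, 3.55, 3.60 and 3.50 in controls and 3.60, 3.54 and 3.46 after ZnO. Its log2 fold change was -0.018 ± 0.068, and its 95% interval ran from 0.885 to 1.10 of the control level. Cdk2 read -0.28, -0.32, -0.55 and -0.62 in controls and -0.66, -0.60 and -0.54 after ZnO (-0.16 ± 0.101, adjusted p 0.931); controls 3 and 4 fell within the range of the ZnO arrays, and controls 1 and 2 lay above it. Cdk4 was one of the 6 genes with all ZnO arrays above the controls, at 1.17, 1.18 and 1.23 against 1.15, 1.16, 1.15 and 1.11, a difference of 0.051 ± 0.061. The CDC25 phosphatases, which remove the inhibitory phosphates from CDKs, gave -0.024 (Cdc25a), -0.014 (Cdc25b) and 0.027 (Cdc25c).

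**Figure D3:**
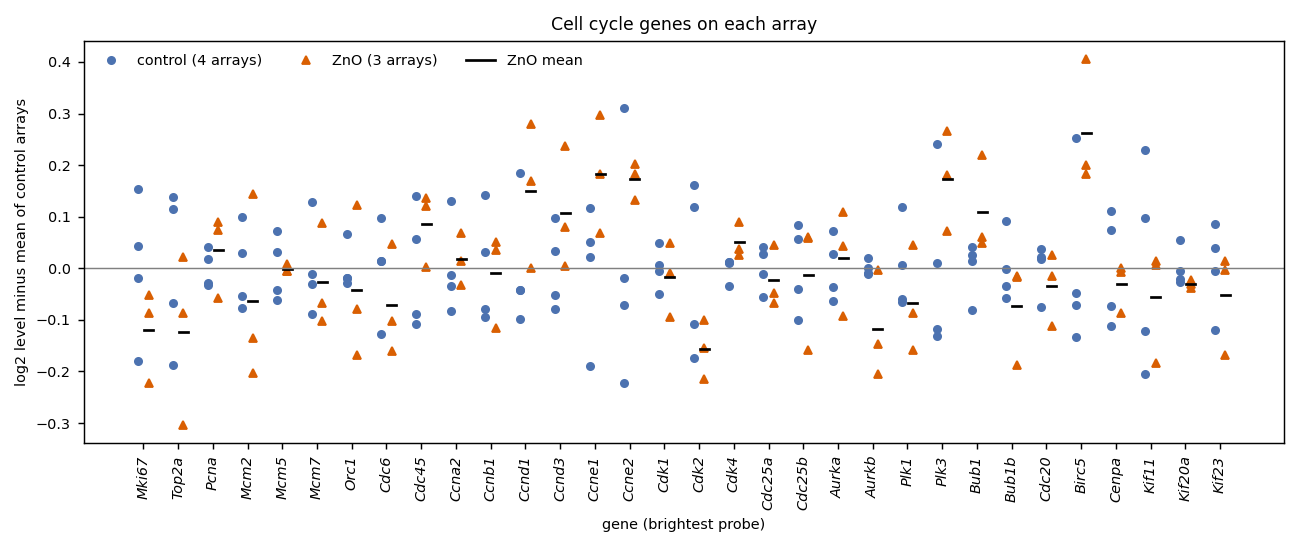
Log2 level of the brightest probe on each array relative to the control mean (vertical axis) for 32 textbook cell cycle genes (horizontal axis), with circles for control arrays, triangles for ZnO arrays and a black bar at the ZnO mean. Triangles lie among the circles for most genes; Bub1 and Cdk4 have all triangles above all circles.

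Mitotic kinases (6 tested) had a median of -0.021. Plk1, which acts at spindle poles and kinetochores, read 2.96, 2.95, 3.03 and 3.14 in controls and 3.06, 2.93 and 2.86 after ZnO (-0.067 ± 0.082). Aurkb, of the chromosomal passenger complex, gave -0.12 ± 0.071; its controls lay close together at -1.21, -1.22, -1.18 and -1.21 and its ZnO arrays at -1.21, -1.35 and -1.41. Plk3, a stress-responsive kinase of the same family as Plk1, gave 0.17 ± 0.108 (adjusted p 0.926), and Aurka gave 0.020 by its brightest probe and -0.24 by a dimmer one.

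The spindle checkpoint and anaphase group (5 tested) held the only gene higher at an unadjusted p under 0.05. Birc5, survivin of the chromosomal passenger complex, read 0.77, 1.16, 0.86 and 0.83 in controls and 1.09, 1.31 and 1.10 after ZnO. Its log2 fold change was 0.26 ± 0.112 (1.20-fold), with an unadjusted p of 0.0493 by limma and an adjusted p of 0.843. Control replicate 2 lay above 2 of the 3 ZnO arrays, so the groups overlapped. Bub1, a checkpoint kinase, had all ZnO arrays above the controls, at 0.60, 0.76 and 0.59 against 0.58, 0.55, 0.56 and 0.46 (0.11 ± 0.074, adjusted p 0.931). Bub1b, Bub3 and Cdc20, the activator of the anaphase-promoting complex, gave -0.073, -0.056 and -0.034.

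Centromere proteins (15 tested) had a median of 0.043, with 10 above 0. Cenpj, Cenpl and Cenpn had all ZnO arrays above the controls, by 0.15 ± 0.072, 0.13 ± 0.073 and 0.043 ± 0.059, and Cenpo had all ZnO arrays below them. Cenpj, a centriole assembly protein despite its family name, read -1.62, -1.42, -1.55 and -1.58 in controls and -1.42, -1.37 and -1.39 after ZnO. Cenpo, of the constitutive network at the inner kinetochore, read -2.82, -2.95, -2.90 and -2.99 in controls and -3.06, -3.07 and -3.16 after ZnO (-0.18 ± 0.072, unadjusted limma p 0.0345, adjusted p 0.822). Cenpa, the centromeric histone H3, gave -0.031 ± 0.081. Cenpu and Cenpw gave 0.18 and 0.14 with overlapping groups, and both Cenpw probes were above 0. The median deviation of the group from the control means was 0.029 to 0.072 on the ZnO arrays and -0.018 to 0.019 on the controls, whereas the arrays of the 2 exposures overlapped in each of the other 10 groups. The median of all gene names also differed between arrays, at 0.018 on ZnO replicate 1 and 0.0014 on control replicate 2. The centromere medians there were 0.029 and 0.019, so relative to all gene names ZnO replicate 1 lay below control replicate 2. The separation holds only for values not taken relative to that median. The median of the centromere group was 0.041 after quantile normalization, 0.0052 after median centring and 0.016 with the percentile over probes above background. These scalings also moved the median of all gene names, to -0.012, -0.042 and -0.031. The centromere median lay 0.047 above that of all gene names as reported, and 0.052 above it after quantile normalization. Median centring and the percentile over probes above background shift all genes of an array alike, so they could not change this distance.

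**Figure D4:**
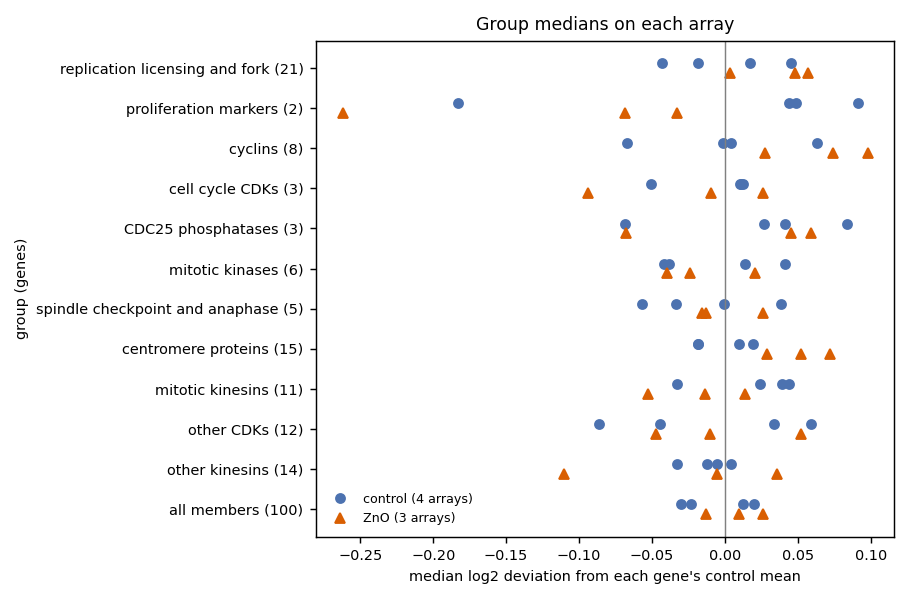
Median over the genes of each role group (rows, with the number of genes) of the log2 deviation from each gene's control mean (horizontal axis), for control arrays (circles) and ZnO arrays (triangles). The exposures overlap except in the centromere group, by values not taken relative to the median of all gene names on each array. The medians over all 100 genes lie between -0.030 and 0.026.

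Mitotic kinesins (11 tested) had a median of -0.023, with 3 above 0 (Kif15 at 0.10, Kif22 at 0.072 and Kif20b at 0.062). Kif14, a motor needed for cytokinesis, read -1.32, -1.33, -1.49 and -1.33 in controls and -1.66, -1.51 and -1.57 after ZnO, so all ZnO arrays were below the controls. Its log2 fold change was -0.21 ± 0.076 (unadjusted limma p 0.0245, adjusted p 0.796), and its second probe gave -0.072. Kif20a, of the central spindle, read 2.34, 2.36, 2.33 and 2.41 in controls and 2.32, 2.33 and 2.34 after ZnO (-0.031 ± 0.061). Kif11, the Eg5 motor that separates spindle poles, gave -0.055 ± 0.120, Kif23 gave -0.052 ± 0.082 and the chromosome-bound Kif4a gave -0.19 ± 0.102 (adjusted p 0.892).

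Kinesins and CDKs not placed in the groups above came in through their family names. Not all of them lack a role in division, so they are described beside the other groups only. The other kinesins (14 tested) had a median of -0.031, and the other CDKs (12 tested) one of -0.022. Kif13b, a cargo motor, had the lowest p of all 100 genes: it read -0.62, -0.75, -0.77 and -0.78 in controls and -0.89, -0.98 and -0.98 after ZnO (-0.22 ± 0.072, unadjusted limma p 0.0174, adjusted p 0.743). A dimmer Kif13b probe gave 0.10 in the opposite direction. Kif3c, a subunit of kinesin-2, had the largest difference, with ZnO arrays at -3.96, -4.10 and -4.04 and controls at -3.78, -3.72, -3.06 and -3.92 (-0.41 ± 0.195, adjusted p 0.867), and control replicate 3 lay apart from the other controls. Cdk10 was higher on all ZnO arrays by both of its probes, by 0.14 ± 0.075 and 0.16 ± 0.062. Cdk9, the kinase of transcription elongation, gave -0.18 ± 0.131, with ZnO arrays from -2.66 to -2.12.

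Genes with several probes show how far probes of the same gene name differed; some of these probes carry different transcript accessions, whose part in the differences was not tested. Of 28 genes with more than 1 tested probe, the probes of 15 lay on the same side of 0 and those of 13 did not. Cdk16 gave 0.024 by its bright probe and -0.28 by a dim one (unadjusted limma p 0.0256). Mcm3 gave -0.0064 by a probe printed 10 times on each array and -0.28 by a dim one with a standard error of 0.34. For the 9 genes with a probe printed 10 times (Cdk1, Ccnd1, Plk1, Mki67, Mcm2, Mcm3, Mcm5, Mcm7 and Bub3), the SD between spots of one array was 0.033 to 0.055, and the SD between control arrays was 0.031 to 0.139. The median SD between control arrays over all 100 genes was 0.094, and between ZnO arrays 0.099. When all 133 tested probes were counted singly, 2 higher and 4 lower ones had p under 0.05 before adjustment, and 129 had an interval within a 1.5-fold change.

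**Figure D5:**
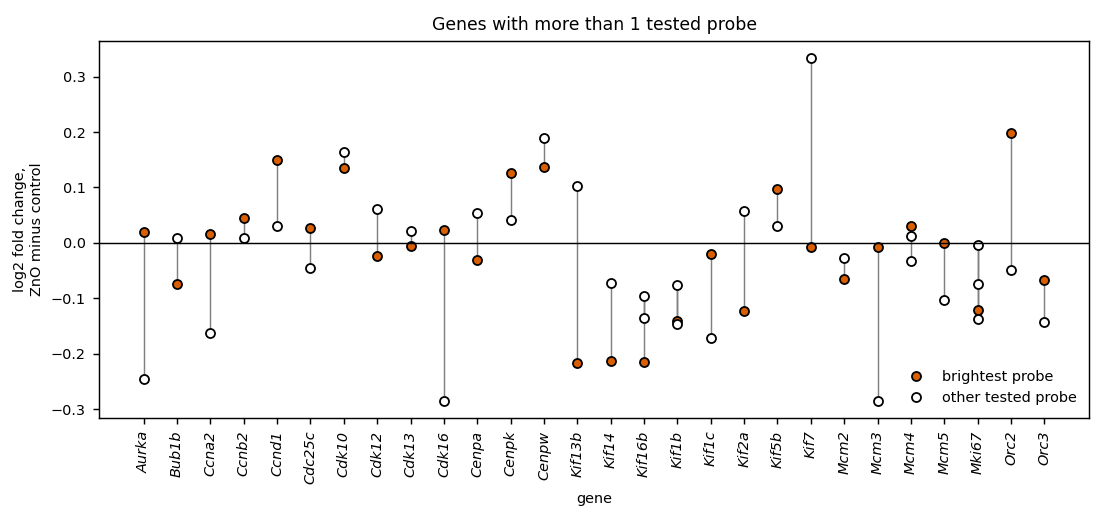
Log2 fold change (ZnO minus control, vertical axis) of every tested probe of the 28 genes with more than 1 (horizontal axis), with the brightest probe of each gene filled. For 13 genes the probes lie on both sides of 0, and the widest gaps are those of Kif7, Kif13b and Cdk16.

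Regulators of the same pathway that the family names did not take were counted in the same way. Of 103 listed genes, 98 were named on the array and 95 were tested: 18 E2F, pocket protein and MuvB genes, 11 CDK inhibitors and checkpoint kinases, 30 other replication genes and 36 other mitosis genes. By limma none passed an adjusted p under 0.05; before adjustment 4 with higher means and 1 with a lower mean had p under 0.05, and all ZnO arrays lay above the controls for 8 and below for 1. Over the 95 these were 4.21% and 1.05% by p (3.21% and 2.67% of all gene names) and 8.42% and 1.05% by groups that did not overlap (4.00% and 3.46%). The 4 were E2f2 (0.24 ± 0.078), Mybl2 (0.15 ± 0.062), the chromatin remodeller Hells (0.28 ± 0.083) and the CDK subunit Cks2 (0.18 ± 0.076), with adjusted p from 0.720 to 0.843, and the lower one was Pole, the leading strand polymerase (-0.22 ± 0.082). Cdkn1a, the p21 inhibitor of CDKs, read 2.26, 2.57, 2.26 and 2.57 in controls and 1.96, 2.26 and 2.43 after ZnO (-0.20 ± 0.140). Foxm1, the transcription factor of mitotic genes, gave 0.014, and E2f1 gave -0.099.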

How the data were processed

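The intensity values were extracted by the authors from scans of one-colour arrays (software: Agilent Feature Extraction 11.0.1.1), with steps that subtracted the background and detrended each array; the deposited intensities are not normalized between arrays, and probe positions are on rn4. A deposited table of all arrays held values equal to the median spot signal. The study normalized by percentile; the percentile and test are not given in the sources used here. The labels' dose was used; the study's text gives a different one. Here log2 of the processed signal minus log2 of each array's 75th percentile was averaged over the spots of a probe, without outlier spots. A probe was tested where it cleared background on every array of either group. Control and ZnO arrays were compared with limma 3.58.1 (R 4.3.3), with Benjamini-Hochberg adjustment over all 20050 probes. A gene was represented by its brightest tested probe. The steps were tested on simulated data. Members and gene lists were chosen with earlier results of these data known. Genes named were a fixed list of textbook cell cycle genes, the lowest p values of each group, and genes whose groups did not overlap; genes with several probes, Cdk18, and those outside these were named after their values were seen. Gene names are those of the array. Promoters came from RefSeq (GRCr8), matched by symbol. Alternatives covered the scaling, background correction, deposited table, filter, variance model, array weights, blocks, single arrays and probe choice.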

Additional observations from a re-analysis of the deposited data

Results flagged for a closer look

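Among the 4 control arrays, the gap from extreme array to nearest neighbour was wide for its range in 5 of 56 sets of values. Chance alone flags about 1 in 20 where sets are independent, and these are not. On control replicates 1 to 3 the median of the cell cycle CDKs is the deviation of Cdk4, so their flags partly share values. The gap took 0.889 of the range for Orc1 and 0.951 for Cdk4. It took 0.920 for Kif14, 0.922 for Cdk9 and 0.964 for the median of the 3 cell cycle CDKs. Control replicate 4 was the array apart for Orc1 (-4.02), Cdk4 (1.11) and the CDK median (-0.051), and control replicate 3 for Kif14 (-1.49) and Cdk9 (-2.37).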

How the results depend on the processing

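Across the 20 alternatives, 0 cell cycle genes and 0 other regulators passed an adjusted p under 0.05. Among fits with over 1 array per group, the lowest for a cell cycle gene was 0.205, with array weights. The set without the 4 arrays marked for evaluation holds 2 control arrays and 1 ZnO array. Its counts below assume the spread of the controls for ZnO. Across the alternatives 83 to 99 tested genes kept an interval within a 1.5-fold change (129 of 133 probes counted singly). Counts at an unadjusted p under 0.05 (reported as 1 higher, 3 lower and 5 other regulators) moved as follows. Higher genes numbered 0 after quantile normalization, 0 after median centring, 0 with the percentile over probes above background on all arrays, 2 with the deposited table, 2 without a filter, 2 with probes counted singly, 5 with array weights and 3 without the marked arrays. Lower genes numbered 7 with array weights (6.95%) and 0 with slide row as a block (1.74%). Other regulators numbered 2 after median centring, 3 with the percentile over probes above background, 2 with normexp, 2 with the deposited table, 1 without a filter, 12 with array weights, 0 with slide row as a block and 13 without the marked arrays. Genes with all ZnO arrays above the controls (6) numbered 2 after quantile normalization, 1 after median centring, 0 with the percentile over probes above background and 1 with normexp, which gave 2 below (4). The median (-0.0090, all gene names -0.0046) was -0.046 after median centring (all -0.042), -0.035 with the percentile over probes above background (all -0.031) and -0.035 without the marked arrays (all 0.024).

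Leaving out 1 array at a time gave 0 to 3 genes higher and 1 to 4 lower at an unadjusted p under 0.05, 7 to 15 genes with ZnO arrays above the controls and 5 to 12 below, a median of -0.0084 to 0.018 and 2 to 9 other regulators. The ends at 15, 12, 0.018 and 9 all came without ZnO replicate 1; with fewer arrays, groups overlap less often by construction. Same-numbered arrays did not deviate together (correlations -0.092, 0.213 and -0.234), so the numbers do not pair them. A replicate block, in which control replicate 4 has no partner (in the slide row block, control replicate 1), gave 1 higher, 3 lower and 2 other regulators. The slide row block and the set without the marked arrays were chosen after seeing the data.

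Among 45 named genes tested, 24 kept 1 sign in the 19 alternatives that use the same probe and 21 changed it at least once (62 of 855 values); of the 24, 3 (Bub1b, Kif13b and Orc2) have another probe of the opposite sign. Group medians stayed above 0 for cyclins and centromere proteins and below 0 for proliferation markers and other kinesins; those of the other 7 groups changed sign in at least 1 alternative. The replication median did so under median centring and the percentile over probes above background alone. Both shift all genes of an array alike, so its distance of 0.028 above the median of all gene names could not change. The causes were not tested. With 4 and 3 arrays, a typical interval extended 0.20 to either side.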
